A study of Mus musculus with 23 samples.

Results

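The histone genes named H2ac, H2bc, H3c or H4c with a number, and the linker histone genes named H1f with a number, were taken by symbol from a table of hippocampal RNA sequencing, which gave 62 of its 19733 genes. They comprised 9 genes of the linker histone H1, 14 of H2A, 15 of H2B, 12 of H3 and 12 of H4. Each mouse contributed 1 library, from 9 Ctrl, 7 EtOH and 7 EtOH-UA mice. All were male wild-type C57BL/6J mice acquired at 6 weeks of age and kept on their diets for 16 weeks, followed by 1 week of behavioral tests. Ctrl mice received the AIN93M control liquid diet and a gavage of the vehicle CMC-Na, EtOH mice the ethanol liquid diet with the same vehicle, and EtOH-UA mice the ethanol liquid diet with urolithin A (UA), a gut microbial metabolite of ellagic acid, by gavage at 200 mg/kg/day. The comparisons ask how these genes stood after chronic ethanol and after UA given on top of ethanol.

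A nucleosome wraps DNA around a core of H2A, H2B, H3 and H4, and H1 binds the linker DNA between cores. In dividing cells the core histones are supplied by many nearly identical genes packed in a few clusters and read mainly in S phase, when the DNA is copied. Their mRNAs differ from most others in that they carry no introns and end in a short stem-loop, bound by the stem-loop binding protein, instead of a poly(A) tail. Neurons no longer divide and rely largely on variant histones that are made throughout the cell cycle, and the dentate gyrus of the hippocampus keeps a small pool of dividing progenitors. The methods describe libraries made from poly(A)+ RNA, whereas the sample annotations name total RNA.

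By position 49 of the 62 genes lay in the chromosome 13 cluster, between 21715711 and 23764412 of the GRCm38 assembly (mm10), and 10 in the chromosome 3 cluster, between 96219885 and 96270192. The remaining 3 lay outside both clusters and did not meet the description of clustered, replication-dependent genes: H1f0, the replacement linker histone of differentiated cells, on chromosome 15 at 79028212 to 79030504, and H1f10 and the oocyte linker histone H1f8 on chromosome 6. H1f6, the testis linker histone, lay inside the chromosome 13 cluster. These genes were kept because the symbol rule took them, and sums over the clustered genes alone are given beside those over all 62.

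The stem-loop is what sets these transcripts apart, so it was looked for in the annotated transcripts of GENCODE release M21. A stem of 6 paired bases starting with GG around a loop of 4 bases starting with TT, within 100 bases of the stop codon, was present in 40 of the 62 genes. Among 20780 coding genes with at least 40 annotated bases after the stop codon, the histone genes included, 52 (0.250%) carried such a match. It began 22 to 59 bases after the stop codon, with a median of 32. Of the other 22 genes, 13 had fewer than 40 annotated bases after the stop codon and could not be searched, and 9 had no match: H1f0, H1f10, H1f1, H1f8, H2bc4, H2bc21, H2bc23, H3c8 and H4c1. The list of 9 contained the 3 genes outside the clusters and H2bc4, the most abundant clustered gene. A missing match refers to the annotated transcripts alone. H1f1 had 48 annotated bases after the stop codon, too few to hold the later matches, and H2bc4 had 1 annotated transcript, of 2 exons. The following sequences show 1 gene of each histone type and the arm forms found in H4, 5′ to 3′ on the DNA sense strand with the paired arms in capitals.
H1f2: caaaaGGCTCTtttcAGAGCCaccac
H2ac18: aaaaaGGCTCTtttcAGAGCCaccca
H2bc6: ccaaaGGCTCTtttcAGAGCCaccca
H3c14: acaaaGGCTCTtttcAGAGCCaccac
H4c9: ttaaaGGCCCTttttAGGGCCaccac
H4c8: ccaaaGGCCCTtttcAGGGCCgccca
H4c11: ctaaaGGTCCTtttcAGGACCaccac
These stem-loops lie at chr13:23739512-23739527 (plus strand) in H1f2, chr3:96246032-96246047 (plus) in H2ac18, chr13:23585531-23585546 (minus) in H2bc6, chr3:96247327-96247342 (plus) in H3c14, chr13:22040966-22040981 (minus) in H4c9, chr13:23531458-23531473 (plus) in H4c8 and chr13:21735437-21735452 (plus) in H4c11, all in the annotated transcript downstream of the stop codon. The arms sorted with the histone type. All 30 stem-loops found in H1, H2A, H2B and H3 genes had the arm GGCTCT, and the 10 found in H4 genes had GGCCCT in 8 and GGTCCT in 2, H4c11 and H4c2.

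The deposited values are FPKM, fragments per kilobase of transcript and scaled to the mapped fragments, so that transcript length is taken into account when genes are set side by side. Where RNA is selected by its poly(A) tail, mRNAs without a tail are recovered only in part, so a low FPKM of such a gene is not a measure of all its RNA. Most of the histone genes were at or near 0. H2bc14 was listed at 0 in all 23 mice, 30 genes were above 0 in 1 to 7 mice, 20 in 8 to 22 mice and 11 in all 23 mice. A mean of at least 0.1 FPKM was reached by 30 of the 62 genes (48.4%) against 81.0% of all genes in the table, a mean of at least 1 FPKM by 12 (19.4%) against 65.4%, and a value above 0 in every mouse by 11 (17.7%) against 79.0%. The median over the genes of the mean FPKM was 0.0957, and over all genes in the table it was 4.34. Between 25 and 34 histone genes were above 0 in a mouse. Over all genes and mice, 87.5% of values in the table were above 0, and over the histone genes 45.9% were.

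**Figure D1:**
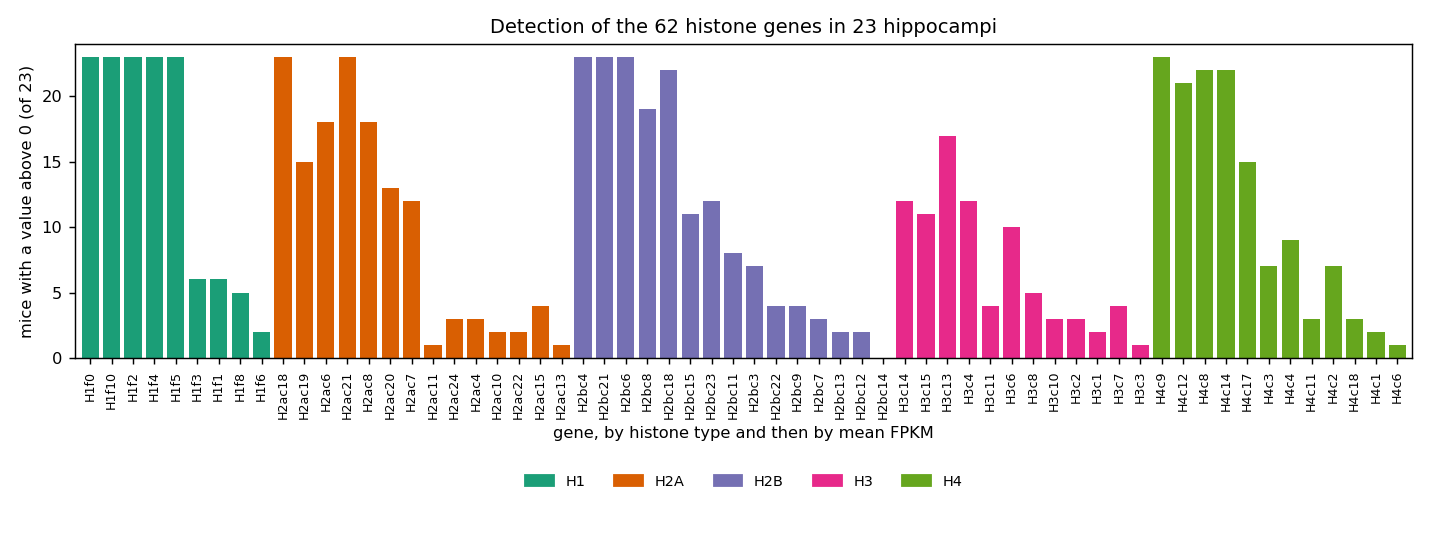
Number of mice (of 23) in which each of the 62 histone genes had a value above 0, by gene and coloured by histone type, with genes ordered by mean FPKM within a type. Bars reach 23 for 11 genes, and H2bc14 has no bar.

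The share of values above 0 spread more widely between histone types than between groups. Of the H1 genes 5 of 9 were above 0 in every mouse, of H2A 2 of 14, of H2B 3 of 15, of H3 0 of 12 and of H4 1 of 12. That share was highest for H1, with 67.9% for Ctrl, 60.3% for EtOH and 65.1% for EtOH-UA mice, and lowest for H3, with 30.6%, 27.4% and 33.3%. H2A had 41.3%, 42.9% and 44.9% in the same order, H2B 48.1%, 45.7% and 47.6%, and H4 48.1%, 50% and 48.8%. Over all 62 genes the values were 46.1% for Ctrl, 44.5% for EtOH and 47.0% for EtOH-UA mice, and 54, 49 and 51 genes were above 0 in at least 1 mouse of the group. Since Ctrl held 9 mice and the other groups 7, these last counts are not comparable.

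The chromosome 3 cluster was the better represented. All of its 10 genes had a mean of at least 0.1 FPKM and 5 reached 1 FPKM, with a median of 0.839 FPKM. In the chromosome 13 cluster 18 of 49 genes had a mean of at least 0.1 FPKM and 5 reached 1 FPKM, with a median of 0.0513 FPKM. Levels also differed with the annotated end of the transcript. Among the 15 genes with a transcript of at least 150 bases after the stop codon and a poly(A) signal (AATAAA or ATTAAA) in its last 50 bases, 7 reached 1 FPKM and the median was 0.542 FPKM. Among the other 47 genes 5 did, and the median was 0.0613 FPKM. The 7 were H1f0, H1f10, H1f2, H2bc21, H2bc6, H3c14 and H4c9, and the 5 were H2bc4, H2ac18, H2ac19, H3c15 and H4c12. Genes that carried the stem-loop had a median of 0.0957 FPKM and those searched without a match 0.104 FPKM.

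One EtOH-UA library stood apart in many of these genes. Its summed FPKM over all genes was 404609, against 327896 to 379518 in the other 22 mice, and its Ttr, the transthyretin gene of the choroid plexus, was 7704.77 FPKM. It was the highest of the 23 mice for 11 of the 30 histone genes with a mean of 0.1 FPKM or more (36.7%), against 23.2% of all genes at that mean. Its values for these 30 genes were a median of 1.73 times the median of the other mice, compared with 1.03 times over all genes. Among the 12 histone genes whose mean reached 1 FPKM it was the highest for 9 (75%). The share over all genes at a mean of 1 FPKM was not computed. The 9 include H2ac18 and H2ac19, which share most of their sequence and are not separate counts. The main results on EtOH-UA mice are therefore given with and without this mouse. The 10 markers of hippocampal neurons each had a mean of at least 1 FPKM over all mice. Slc17a7 (mean 428.6 FPKM), Neurod6 (104.4) and Cabp7 (86.4) led them, and the 10 together summed to 700.5 to 916.9 FPKM. Some markers varied more between mice. Fibcd1 ranged from 21.38 to 34.25 FPKM in Ctrl and from 3.62 to 33.39 in EtOH-UA mice. Dsp ranged from 1.14 to 10.53 FPKM in Ctrl mice, 1.14 being the lowest value of any of the 10. The 8 choroid plexus markers, led by Ttr, Kl and Clic6, summed to 8.89 to 2986 FPKM over Ctrl mice (median 61.7), 72.1 to 5782 over EtOH mice (median 1286) and 17 to 7847 over EtOH-UA mice (median 1869). Whether choroid plexus in the samples has a part in the histone results below was not tested.

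Linker histones had the largest sum of mean FPKM over all 62 genes, 69.5, most of it from H1f0 and H1f10 outside the clusters. Over the clustered genes alone the H1 sum was 8.60 FPKM, below H2B with 38.4 and H2A with 17.15. H1f0 was the most abundant of the 62 genes, at 45.0 ± 3.39 FPKM in Ctrl (SD, n = 9), 43.8 ± 3.28 in EtOH (n = 7) and 46.1 ± 5.92 in EtOH-UA mice (n = 7). Its Ctrl mice lay between 40.69 and 49.89 FPKM (median 44.41), EtOH mice between 39.57 and 49.76 (median 43.95) and EtOH-UA mice between 40.58 and 57.22 (median 44.2), so the groups overlapped throughout. H1f10, another linker histone made outside S phase, stood at 16.2 ± 2.59, 15 ± 1.88 and 16.4 ± 1.96 FPKM in the same order. H1f2 was the leading H1 gene of the chromosome 13 cluster (23738807 to 23739531). Ctrl mice spanned 4.91 to 9.11 FPKM (median 6.25), EtOH mice 7.42 to 10.01 (median 8.6) and EtOH-UA mice 6.07 to 16.96 (median 7.76). All 7 EtOH mice were above the Ctrl median, although 3 Ctrl mice lay inside the EtOH range. H1f4 and H1f5 were above 0 in every mouse at means of 0.372 and 0.253 FPKM, and H1f3, H1f1, H1f8 and H1f6 were above 0 in 2 to 6 mice with means of 0.00696 to 0.0309 FPKM.

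Among the H2A genes H2ac18 carried most of the signal, at 12.9 ± 2.66 FPKM for Ctrl, 12.7 ± 2.11 for EtOH and 14.9 ± 4.77 for EtOH-UA mice. Its range was 10.15 to 17.02 FPKM for Ctrl, 8.44 to 15.15 for EtOH and 10.67 to 24.41 for EtOH-UA mice, where the highest value was that of the library that stood apart and the next was 17.04. H2ac19 came next with a mean of 1.78 FPKM and was above 0 in 15 mice. H2ac6, H2ac21, H2ac8, H2ac20 and H2ac7 had means between 0.200 and 0.453 FPKM, and the other 7 H2A genes means between 0.0104 and 0.0452 FPKM, each above 0 in 1 to 4 mice.

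H2bc4 was the most abundant clustered gene of all, at 29.0 ± 3.03 FPKM for Ctrl, 31.5 ± 6.13 for EtOH and 35.4 ± 11.6 for EtOH-UA mice. Ctrl mice spanned 25.16 to 34.67 FPKM (median 28.91), EtOH mice 23.81 to 39.37 (median 33.72) and EtOH-UA mice 26.81 to 60.76 (median 30.67). Without the library that stood apart the EtOH-UA mean was 31.2 ± 3.35 FPKM (n = 6) and the highest value 35.77. Its annotated transcript has 2 exons, which is unlike the single exon usual for this family. H2bc6, H2bc22 and H2bc23 also have an annotated transcript of 2 exons. H2bc21 lay between 3.25 and 5.32 FPKM in all mice, with a mean of 4.03 FPKM. H2bc6 followed at 1.08 FPKM and H2bc8 at 0.577 FPKM, and the H2B genes below the mean of 0.1 FPKM numbered 7.

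H3 and H4 were low. The 12 H3 genes summed to 3.03 ± 0.478 FPKM for Ctrl, 2.77 ± 0.663 for EtOH and 4.12 ± 1.19 for EtOH-UA mice, most of it from H3c14 and H3c15 on chromosome 3. The 12 H4 genes, most of which encode the same protein, summed to 4.42 ± 0.734, 4.97 ± 1.25 and 5.47 ± 2.36 FPKM. H4c9 led them with 1.497 ± 0.661 FPKM for Ctrl, 1.55 ± 0.478 for EtOH and 2.27 ± 1.61 for EtOH-UA mice, followed by H4c12, H4c8 and H4c14 with means of 1.08, 0.828 and 0.542 FPKM over all mice. For H4c14 all 22 values above 0 were whole multiples of 0.166 FPKM within 0.15 of a step, the highest being 7.96 steps, and for H2bc18, on chromosome 3, 20 of 22 fell on multiples of 0.126 FPKM. Both were chosen after the values of 29 genes were seen and had the highest shares on steps among them. The step of each gene was fitted to the same values: sizes near its lowest value above 0 were tried, and that placing most values on steps was kept. Part of any set of values falls within 0.15 of a step, so these shares are no test. The other H3 and H4 genes had shares from 29.4% for H3c13 to 80% for H3c6, so no number of fragments was read from them.

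**Figure D2:**
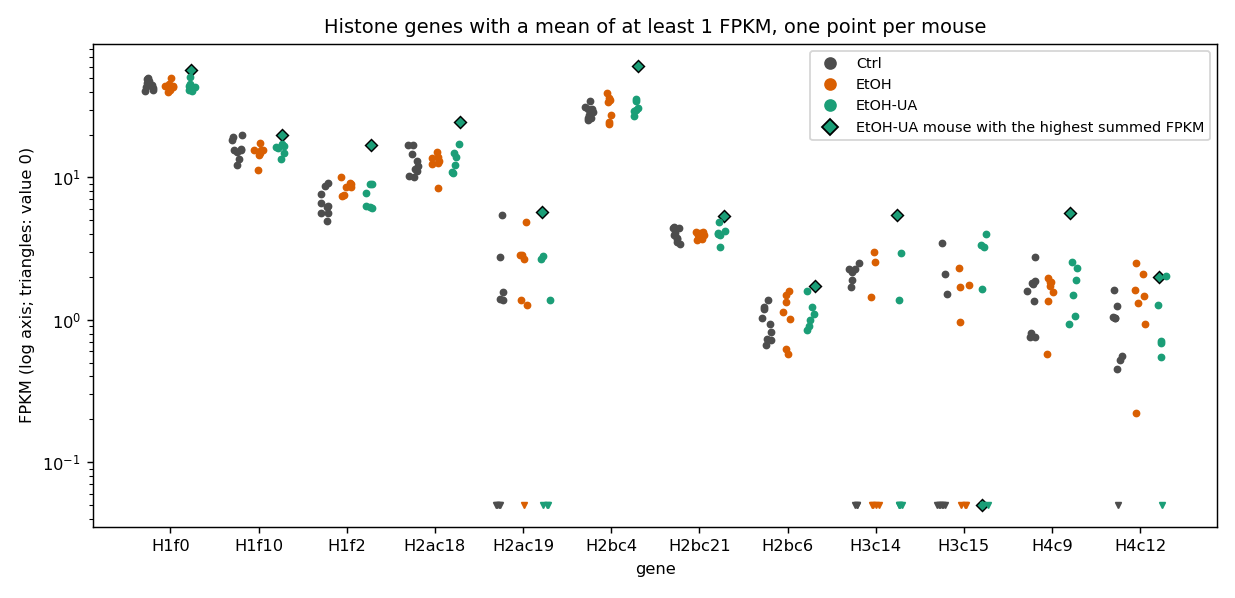
FPKM on a log axis of the 12 histone genes whose mean reached 1 FPKM, one point per mouse in the Ctrl (9), EtOH (7) and EtOH-UA (7) groups, with values of 0 drawn as triangles at the bottom. The EtOH-UA mouse with the highest summed FPKM, drawn as a diamond, is the highest of the 23 mice for 9 of the 12 genes, and H3c14 and H3c15 are the genes most often at 0.

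H3c14 and H3c15 were never measured together. In each of the 23 mice exactly 1 of the 2 was above 0: H3c14 in 6 Ctrl, 3 EtOH and 3 EtOH-UA mice, and H3c15 in the other 3 Ctrl, 4 EtOH and 4 EtOH-UA mice. The genes sit at the outer ends of an inverted arrangement, with H3c14 (96246685 to 96247348) next to H2ac18 (96245497 to 96246052) on the plus strand and H3c15 (96238479 to 96239127) next to H2ac19 (96239779 to 96240374) on the minus strand. Of the 100-base windows of the H3c15 transcript 61.6% occurred unchanged in H3c14, and 32.9% of those of H3c14 in H3c15. All windows of H3c14 (100%) and 88.3% of those of H2ac18 were also found in Gm20634, an annotated gene that overlaps both on the same strand, and 77.1% of those of H3c13 in H3c14. Reads from such windows cannot be assigned to 1 gene by sequence. The sum of both was above 0 in all mice and ranged from 0.97 to 5.44 FPKM with a median of 2.27. It was 2.21 ± 0.560 FPKM for Ctrl, 1.96 ± 0.696 for EtOH and 3.15 ± 1.39 for EtOH-UA mice. By two-sided exact permutation tests the sum gave p = 0.438 for EtOH against Ctrl, p = 0.0629 for EtOH-UA against EtOH and p = 0.0793 for EtOH-UA against Ctrl mice, and p = 0.126 and p = 0.196 for the latter comparisons without the library that stood apart.

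The neighbouring H2A copies behaved differently. H2ac18 was above 0 in all 23 mice and H2ac19 in 15, with 100% of the windows of H2ac19 found in H2ac18 and 88.1% of those of H2ac18 in H2ac19. Their sum was 14.3 ± 2.195 FPKM for Ctrl, 14.98 ± 2.75 for EtOH and 16.7 ± 6.23 for EtOH-UA mice, and exact permutation tests gave p = 0.587, p = 0.656 and p = 0.358 for the comparisons in the order above. Of the 62 genes, 22 shared at least 50% of their windows with another annotated gene, and 9 shared none, namely H1f0, H1f10, H1f5, H1f1, H1f8, H1f6, H2bc21, H4c14 and H4c4. The median share was 64.5% for H2A, 49.8% for H3, 40.1% for H2B, 25.4% for H4 and 0 for H1. Values of single copies that share windows are therefore uncertain. The summed pairs still depend on the split within the pair, because FPKM divides by transcript length. The longest annotated transcripts had 1825 bases for H3c14 and 1020 for H3c15, and 586 for H2ac18 and 528 for H2ac19. The sums also depend on any split with genes outside the pair.

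**Figure D3:**
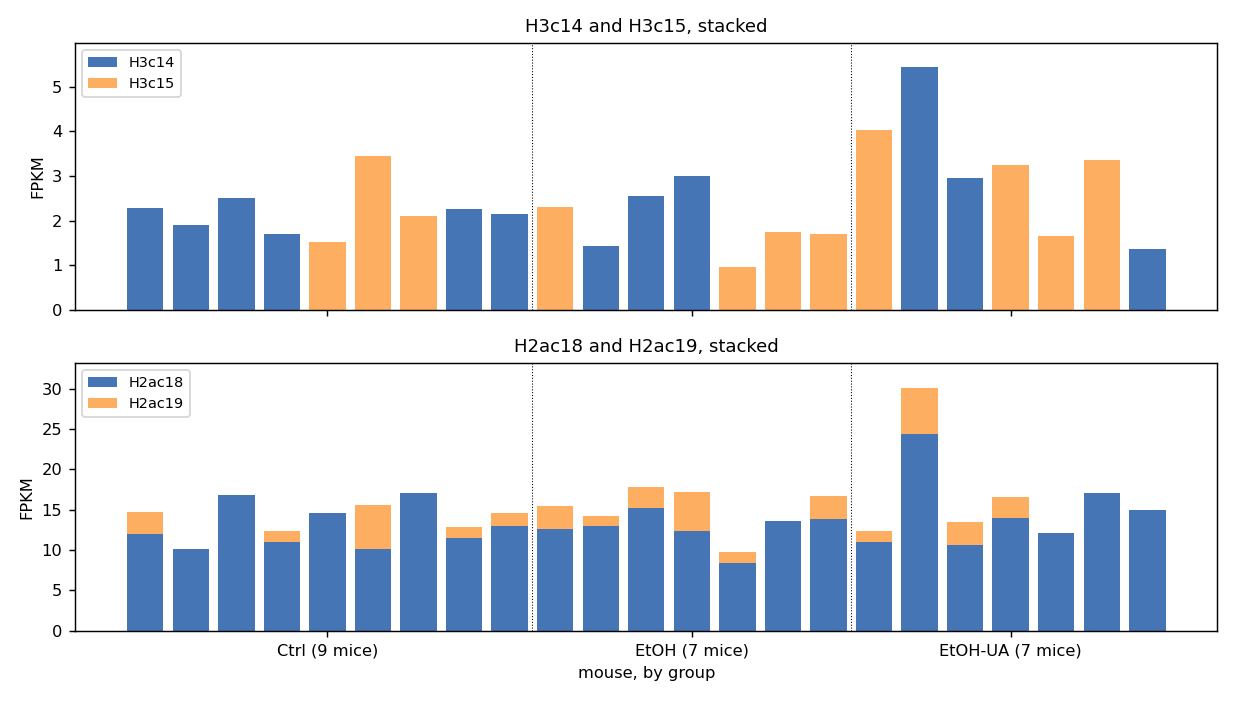
FPKM of H3c14 and H3c15 (upper panel) and of H2ac18 and H2ac19 (lower panel) stacked in each mouse, with the 9 Ctrl, 7 EtOH and 7 EtOH-UA mice in order of group. Every bar in the upper panel has a single colour, whereas in the lower panel H2ac18 is present in all 23 mice and H2ac19 in 15.

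H2A and H2B genes are often arranged head to head on opposite strands with a short shared promoter region. There were 9 head-to-head pairs among the 62 genes with starts under 1000 bases apart, and 8 of them joined an H2A with an H2B gene across 163 to 248 bases. The H2B gene had the higher mean FPKM in 7 of the 8. The contrast was widest for H2bc4 and H2ac6, which face each other across 239 bases: H2bc4 had a mean of 31.7 FPKM and H2ac6 of 0.453 FPKM, a ratio of 70.0. H2ac6 carried the stem-loop match and H2bc4 did not, and the part of poly(A) selection in this ratio was not tested. H2bc21 and H2ac20 followed with means of 4.03 and 0.247 FPKM, a ratio of 16.3, while H2bc8 and H2ac8 stood at 0.577 and 0.410 FPKM. The region between H2ac6 and H2bc4 is shown because both genes start from it. It is the RefSeq window from 250 bases before to 50 bases after the H2ac6 start, chr13:23683910-23684209 of GRCm38.p6 on the minus strand, and it reaches the annotated first base of H2bc4 at 23684199. Capitals mark the TATA box letters TATAAA, the CCAAT box and the octamer motif ATTTGCAT, each on either strand.
H2ac6: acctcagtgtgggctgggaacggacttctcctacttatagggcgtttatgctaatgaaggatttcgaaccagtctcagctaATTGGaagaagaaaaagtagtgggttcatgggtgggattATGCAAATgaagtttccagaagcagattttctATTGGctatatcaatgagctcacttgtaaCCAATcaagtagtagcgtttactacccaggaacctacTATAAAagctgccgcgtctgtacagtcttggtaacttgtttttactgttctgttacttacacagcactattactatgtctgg
RefSeq windows were at hand for 57 of the 62 genes. TATAAA was present in 54.4% of them and in 15.7% of all 27025 windows, CCAAT in 82.5% and 41.1%, and the octamer in 17.5% and 1.97%. The letters sorted by histone type. CCAAT was found in 100% of the H2A, H2B and H3 windows and in 27.3% of the H4 windows, and the octamer in 46.2% of H2B and 28.6% of H2A windows and in none of the H1, H3 and H4 windows. TATAAA was most frequent in H4, at 72.7%. Windows of head-to-head H2A and H2B genes overlap, so the same match can count for both types. The counts are of letter matches in a fixed window and are no evidence of binding.

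EtOH mice were then compared with Ctrl mice. Fold changes, standard errors and unadjusted and adjusted p-values come from limma on log2(FPKM + 0.1) over the 15986 genes whose mean reached 0.1 FPKM, with Benjamini-Hochberg adjustment over all of them; 30 histone genes were among these. Because this scale adds 0.1 FPKM, it understates the change of the lowest genes. No histone gene and no gene of the table passed an adjusted p of 0.05 (background 0.0%), and the smallest adjusted p of a histone gene was 0.999. At an unadjusted p under 0.05 limma gave 2 of the 30 (6.67%) against a background of 3.05%, which was 487 genes. The exact permutation test had p under 0.05 for 2 of all 62 histone genes, against 3.24% of all genes in the table. By sign 15 of the 30 were higher in EtOH mice (background 48.6%), and the median log2 fold change was 0.04, compared with -0.003 over all genes tested. In bulk tissue fewer cells of a type and less RNA per cell cannot be told apart.

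H2bc18, an H2B gene of the chromosome 3 cluster, had the smallest p in this comparison. It ranged from 0.28 to 0.90 FPKM in Ctrl mice (median 0.5) and from 0.12 to 0.61 in EtOH mice (median 0.13), and 6 of 7 EtOH mice were below the Ctrl median. The groups overlapped through 1 EtOH mouse at 0.61 FPKM. Of the 22 values of H2bc18 above 0, 20 fell on multiples of the fitted step of 0.126 FPKM, and the EtOH median lay near the smallest of these steps. The means were 0.587 ± 0.197 FPKM in Ctrl and 0.233 ± 0.177 in EtOH mice, with a log2 fold change of -1.12 ± 0.33 (SE), an unadjusted limma p of 0.00228 (adjusted 0.999) and an exact permutation p of 0.0028. Of its transcript windows 45.4% were shared with Gm42743, an annotated noncoding gene that overlaps it on the same strand. H1f2 was the other gene, with a log2 fold change of 0.37 ± 0.16, an unadjusted limma p of 0.0348 (adjusted 0.999) and an exact permutation p of 0.0129. Its fold lay between 0.31 and 0.42 when each mouse in turn was left out. For H4c12 and H4c8, the second gene in each direction, the log2 fold changes were 0.82 ± 0.58 and -0.57 ± 0.42, both within the spread of the mice. H1f0, H1f10, H2ac18, H2bc4, H2bc21, H2bc6 and H4c9 had log2 fold changes of -0.10 to 0.14, with unadjusted p between 0.302 and 0.926.

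**Figure D4:**
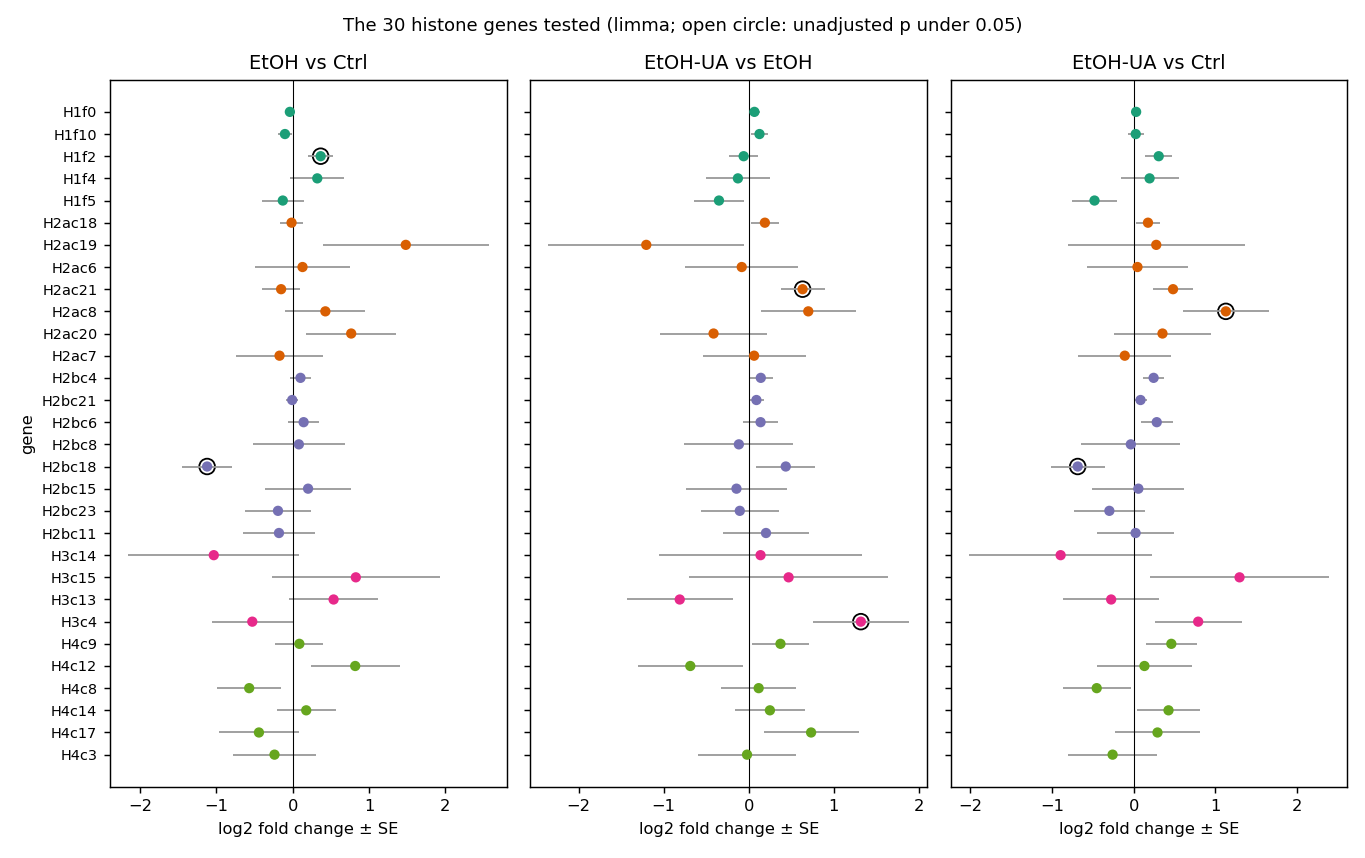
Log2 fold change on the log2(FPKM + 0.1) scale with its standard error for the 30 histone genes whose mean reached 0.1 FPKM, in the 3 comparisons, coloured by histone type as in the plot of detection. Open circles mark 2 genes in each comparison with an unadjusted limma p under 0.05, and the widest bars belong to H2ac19, H3c14 and H3c15.

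EtOH-UA mice were compared with EtOH mice, the same 7 as above, to ask about UA on top of ethanol. No histone gene and no gene of the table passed an adjusted p of 0.05 (background 0.0%), with a smallest adjusted p of 0.900 among the histone genes. Before adjustment 2 of the 30 (6.67%) had p under 0.05, against a background of 3.27% (523 genes), and the exact permutation test gave 2 of all 62, against 2.71% of all genes in the table. Without the library described above it gave 1, H2ac21, against 2.2%. There were 18 of 30 with a higher value in EtOH-UA mice (background 51.2%) and a median log2 fold change of 0.10, compared with 0.003 over all genes. Without the library that stood apart the number was 17 and the median 0.009. Both genes were low. H2ac21 ranged from 0.43 to 0.62 FPKM in EtOH-UA mice (median 0.53) and from 0.15 to 0.66 in EtOH mice (median 0.29), so that every EtOH-UA mouse was above the EtOH median while 2 EtOH mice lay within or above the EtOH-UA range. The log2 fold change was 0.63 ± 0.26 (unadjusted limma p = 0.0224, adjusted 0.900, exact permutation p = 0.0274) and 0.63 without the library that stood apart. H3c4 was above 0 in 6 of 7 EtOH-UA mice, 2 of 7 EtOH mice and 4 of 9 Ctrl mice, with a highest value of 0.61 FPKM in a Ctrl mouse. Its log2 fold change was 1.32 ± 0.57 (unadjusted limma p = 0.0287, adjusted 0.900, exact permutation p = 0.0396), and p was 0.0596 without that library. In the lower direction H3c13 and H1f5 had log2 fold changes of -0.81 ± 0.62 and -0.35 ± 0.29, and of -0.55 and -0.50 without that library.

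For the abundant genes the library that stood apart set much of the group mean. H2bc4 had a log2 fold change of 0.14 ± 0.14 with it and of 0.004 without it, H2ac18 of 0.19 ± 0.16 and 0.06, and H4c9 of 0.37 ± 0.34 and 0.12. H1f2 had -0.06 ± 0.17 with it and -0.23 ± 0.13 without it (exact permutation p = 0.0828), and against Ctrl mice 0.31 ± 0.16 and 0.13 ± 0.12. None of these differences passed the test in either form.

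H4c11 was also measured by qRT-PCR in the study and so chosen with these samples in view. It was listed at 0 throughout the Ctrl and EtOH groups, and 3 of the 7 EtOH-UA mice had 0.90, 0.30 and 0.98 FPKM. Its mean of 0.0948 FPKM was under the minimum for the model. The value of 0.90 FPKM came from the library that stood apart, and without it the exact permutation p against Ctrl went from 0.0625 to 0.143, while against EtOH it was 0.192 in both cases. H4c11 shared 18.96% of its transcript windows, all with H4c8, whose own mean was 0.828 FPKM.

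EtOH-UA mice were also compared with Ctrl mice, the same EtOH-UA libraries being used as in the comparison above and the same Ctrl libraries as in the first. Again no histone gene and no gene of the table passed an adjusted p of 0.05 (background 0.0%), and the smallest adjusted p of a histone gene was 0.999. The unadjusted p was under 0.05 for 2 of 30 (6.67%), against a background of 3.08% (492 genes). By sign 21 of the 30 stood higher (background 51.2%) with a median log2 fold change of 0.11, and without the library that stood apart 15 of 30 and a median of 0.003. H2ac8 ranged from 0.32 to 1.21 FPKM in EtOH-UA mice and from 0 to 1.02 in Ctrl mice, and all 7 EtOH-UA mice were above the Ctrl median of 0.28. Its log2 fold change was 1.13 ± 0.53 (unadjusted limma p = 0.0421, adjusted 0.999, exact permutation p = 0.0969), with p = 0.0642 without that library. H2bc18 had a log2 fold change of -0.69 ± 0.33 (unadjusted limma p = 0.0475, adjusted 0.999, exact permutation p = 0.0739), and of -0.83 without that library (exact permutation p = 0.032). Its EtOH-UA mice ranged from 0 to 0.65 FPKM with a median of 0.49. The second gene in each direction was H2ac21 at 0.48 ± 0.24 and H1f5 at -0.48 ± 0.28, and H1f5 stood at -0.63 without that library (exact permutation p = 0.0316). By the exact permutation test 1 of all 62 genes had p under 0.05, against 2.83% of all genes in the table: H2bc3, an H2B gene below the minimum of the model, was above 0 in 5 of 7 EtOH-UA, 1 of 7 EtOH and 1 of 9 Ctrl mice, with a highest value of 0.35 FPKM, in the library that stood apart, and p = 0.00874 (0.02 without it). It was singled out after its values were seen. Without that library the exact permutation test gave 4 of all 62, H1f5, H2bc18, H2bc3 and H4c8, against 2.27% of all genes in the table, with p = 0.0288 for H4c8, whose limma p was 0.206.

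**Figure D5:**
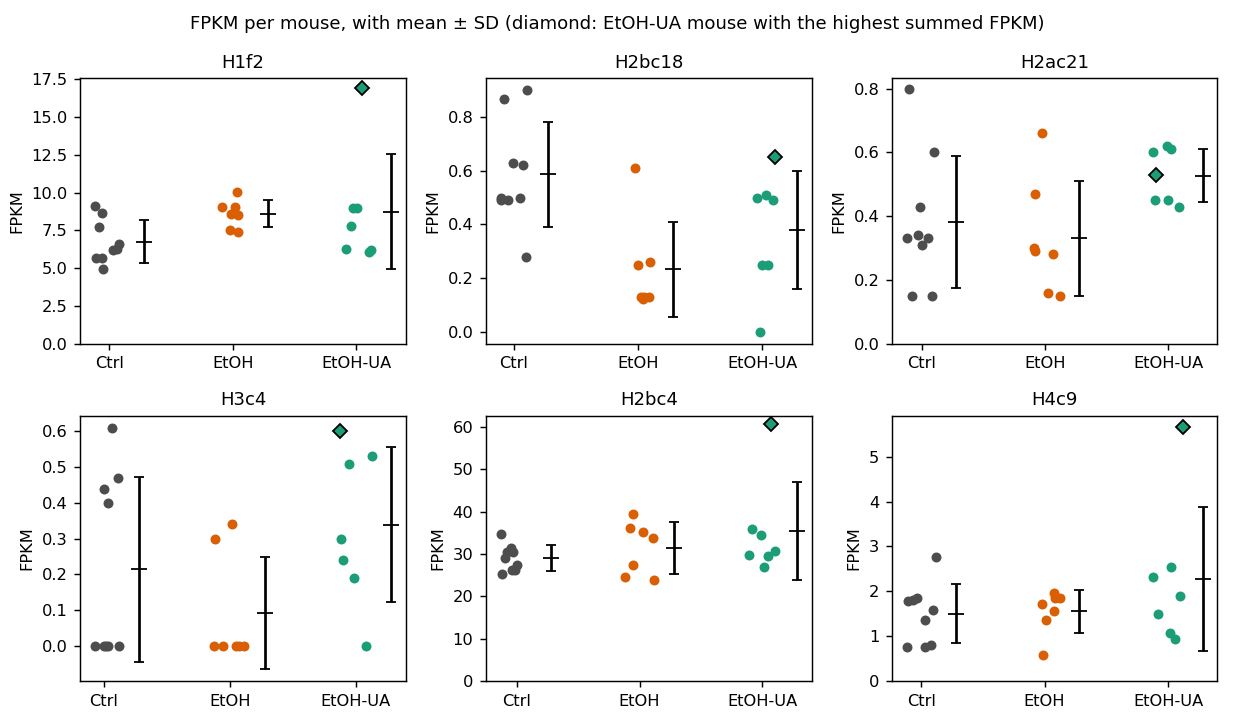
FPKM per mouse of H1f2, H2bc18, H2ac21, H3c4, H2bc4 and H4c9 in the Ctrl (9), EtOH (7) and EtOH-UA (7) groups, with the mean and SD at the right of each group and the EtOH-UA mouse with the highest summed FPKM as a diamond. In H1f2, H2bc4 and H4c9 the diamond, at 16.96, 60.76 and 5.66 FPKM, lies far above the other EtOH-UA mice, and the groups overlap in every panel.

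Summed by type the values did not separate the groups either. All 62 genes summed to 127.5 ± 10.7 FPKM for Ctrl, 130.8 ± 13.6 for EtOH and 142.9 ± 33.5 for EtOH-UA mice, the last being 130.6 ± 8.64 without the library that stood apart. The 59 clustered genes summed to 66.3 ± 7.00 FPKM for Ctrl, 72.0 ± 11.3 for EtOH and 80.4 ± 26.5 for EtOH-UA mice, and to 70.6 ± 4.64 in EtOH-UA mice without the library that stood apart. H1 summed to 68.6 ± 6.45, 68.2 ± 4.88 and 71.9 ± 11.2 FPKM (68.0 ± 4.90 without that library), H2A to 15.8 ± 2.49, 17.0 ± 2.77 and 18.98 ± 7.32 (16.3 ± 2.14) and H2B to 35.6 ± 3.69, 37.9 ± 6.77 and 42.5 ± 12.4 (38.0 ± 3.47). Every pair of groups overlapped in each sum. The H3 sum stayed at 3.76 ± 0.797 FPKM in EtOH-UA mice without that library, above the means of both other groups, and the H4 sum was 4.597 ± 0.580. No test was run on these sums of chosen genes.

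Genes that act with the histone genes were taken from written lists. Genes listed as replication-independent histone variants had a higher summed level than the clustered genes. Of 19 names 11 were matched, older and newer names of the same genes being among those written, and all 11 were tested. The list includes H2ax and H2aw, and whether each of the 11 is replication-independent was not tested. H3f3a, H3f3b and H2az1 led with means of 125.4, 107.5 and 91.6 FPKM. The 4 most abundant variants were above H2bc4, the highest clustered gene, at 31.7 FPKM, and the other 7 below it. Their summed FPKM ranged from 381.2 to 474.1 for Ctrl, from 396.9 to 466.3 for EtOH and from 403.4 to 640.4 for EtOH-UA mice. No variant passed an adjusted p in any comparison, and by sign 10 of 11 were higher under UA than under ethanol alone, with a median log2 fold change of 0.15, against 51.2% and 0.003 over all genes tested. Without the library that stood apart these were 9 of 11 and 0.09. Unadjusted p under 0.05 was reached by 1 of 11 in that comparison, H2az2 (0.22 ± 0.09), against 3.27% of all genes tested. In EtOH-UA against Ctrl mice it was also 1 of 11, H3f3a (0.16 ± 0.07), against 3.08%. Without that library 0 variants reached it in either comparison.

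The genes that process, translate or degrade histone mRNA were present throughout. Of 18 measured, all tested, 17 had a mean of at least 1 FPKM, with Srrt, Cstf2 and Ncbp2 highest at 44.2, 33.7 and 32.3 FPKM, and their sum stayed between 278.9 and 299.9 FPKM in all mice. None passed an adjusted p, and 1 had an unadjusted p under 0.05: Lsm11, a subunit of the U7 snRNP that helps cut histone mRNA at its end, had a log2 fold change of -0.21 ± 0.09 in EtOH-UA against EtOH mice (limma adjusted p = 0.900). Histone chaperones, which carry histones to DNA, were led by Nap1l5, Npm1 and Nap1l1 at 169.3, 145.3 and 99.5 FPKM; of 20 tested, none passed an adjusted p and 1, Chaf1b, had an unadjusted p under 0.05 (0.50 ± 0.20 in EtOH against Ctrl mice).

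S phase and mitosis genes were mostly low. Of 40 measured, 37 were tested and 22 had a mean of at least 1 FPKM, led by Pcna, Ccne1 and Mcm6 at 33.7, 6.598 and 5.64 FPKM, and Mki67 had a mean of 0.363 FPKM. None passed an adjusted p. In EtOH against Ctrl mice 5 of 37 were higher and 0 lower at an unadjusted p under 0.05, which 3.05% of all genes tested reached in either direction. The 5 were Tyms, Rfc4, Mcm2, Pola1 and Mki67. Rfc4, a subunit of the clamp loader of the replication fork, had the largest log2 fold change of the 5, 0.39 ± 0.11 (limma adjusted p = 0.999). By sign 21 of 37 were higher (background 48.6%), with a median log2 fold change of 0.03. In EtOH-UA against EtOH mice 0 were higher and 1 lower at an unadjusted p under 0.05 (background 3.27% in either direction). Without the library that stood apart these were 0 and 2. EtOH-UA against Ctrl mice gave 1 higher and 1 lower (background 3.08% in either direction). Genes of these lists named for an unadjusted p were chosen after their values were seen.

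Markers of choroid plexus, blood, microglia, and thalamus and septum were counted in the same way, and none passed an adjusted p in any comparison. Of all genes tested, 48.6% were higher in EtOH against Ctrl mice and 51.2% in each of the other comparisons. Unadjusted limma p under 0.05 was reached by 3.05% in EtOH against Ctrl, 3.27% in EtOH-UA against EtOH and 3.08% in EtOH-UA against Ctrl mice. Markers within a list are not independent of each other, so their counts are not separate results. In EtOH against Ctrl mice 8 of 8 choroid plexus markers were higher with a median log2 fold change of 1.73. Of these, 2 had an unadjusted p under 0.05. In EtOH-UA against Ctrl mice 8 of 8 were higher with a median of 1.22 (0.76 without the library that stood apart). In EtOH-UA against EtOH mice 0 of 8 were higher, with a median of -0.43 (-0.90 without that library). Blood markers (Hbb-bs, Hba-a1 and Alas2) had 3 of 3 higher in EtOH-UA against Ctrl mice, 2 of them at an unadjusted p under 0.05 (1 without the library that stood apart), with medians of the sum of 77.8 FPKM for Ctrl, 112.5 for EtOH and 111.0 for EtOH-UA mice. Microglial markers, led by Csf1r, P2ry12 and Cx3cr1, summed to medians of 60.7, 60.1 and 57.8 FPKM, and 0 of 4 had an unadjusted p under 0.05 in any comparison. Thalamus and septum markers, led by Trpc4, Prkcd and Zic1, summed to medians of 27.0, 31.9 and 29.8 FPKM. In EtOH-UA against Ctrl mice 1 of these 4 and 1 of the 10 hippocampal neuron markers were higher at an unadjusted p under 0.05. Each count was also 1 without the library that stood apart. In the other comparisons both lists had 0 at that level. The part of these cells in the histone values was not tested. A list of 16 RNAs without a poly(A) tail or with a short one matched 0 rows by name and was not analysed here.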

How the data were processed

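Hippocampal RNA of 23 mice was measured. The authors deposited FPKM to 2 decimals, which their methods describe as aligned with Bowtie2 to mm10 and quantified by RSEM. The submitters' processing notes name Bowtie2 2.2.5, RSEM 1.2.8 and HISAT2 2.1.0, and the gene annotation is not given in the sources used here. Read depth is not given either, and no interval for counting error was made. Columns were assigned to groups by name. Genes and lists were chosen with earlier results of these data known. Values were transformed as log2(FPKM + 0.1), and limma 3.58.1 (R 4.3.3) was run on the 15986 genes whose mean reached 0.1 FPKM, in a single model for all 3 groups, with eBayes and its trend option. Since the authors' count test needs counts, it was not applied. The exact permutation test, two-sided, took the difference of mean FPKM of a gene over 11440 splits against Ctrl and 3432 for EtOH-UA against EtOH. Genes whose mean reached 1 FPKM, the 2 smallest p in each direction per comparison, H4c11 and the 3 most abundant genes of each list were named. The marker lists of 2 further cell types are not reported here. Coordinates are from RefSeq (GRCm38.p6), matched by gene ID for all 62 genes, and transcripts from GENCODE M21. The fit was tested on simulated data.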

Additional observations from a re-analysis of the deposited data

Results flagged for a closer look

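In groups of 7 to 9 mice, the gap between the highest or lowest mouse and its neighbour, divided by the range of the group, was compared with Dixon's 95% value. Of 73 groups of values 12 exceeded it, and 7 of the 12 belonged to the EtOH-UA library with the highest summed FPKM. An expected number of 3.6 would hold only for independent and normally distributed groups. These groups share mice and genes, so the 12 cannot be measured against it. In that library the ratio was 0.588 for the H1 sum (95.08 FPKM, next mouse 74.76), 0.766 for the H2A sum (34.98, next 18.9), 0.752 for the H2B sum (69.74, next 42.39) and 0.764 for the H4 sum (10.68, next 5.6). Among single genes it was 0.733 for H1f2, 0.736 for H2bc4 and 0.659 for H4c9.

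The other 5 lay in other mice. The lowest EtOH mouse for H2ac18 had 8.44 FPKM (ratio 0.586, next 12.37). The highest Ctrl mouse for H2ac19 had 5.45 FPKM (ratio 0.497), and the highest EtOH mouse for H2bc18 had 0.61 FPKM (ratio 0.714, next 0.26). H2ac8 had a mouse apart in 2 groups, at 1.02 FPKM in Ctrl (ratio 0.637) and at 1.21 FPKM in EtOH-UA (ratio 0.64).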

How the results depend on the processing

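Pseudocounts of 1 and 0.01, no filter, a filter at a mean of 1 FPKM, fits of 2 groups, upper-quartile scaling, quantile normalization, robust eBayes, permutation tests and leaving out each mouse left 0 histone genes past an adjusted p of 0.05. The number of all genes past it went from 0 to at most 1 when a mouse was left out: lowest 0 and highest 1 in each of the 3 comparisons. Genes detected in at least 1 mouse numbered 61 with values above 0 and 19 with values of at least 1 FPKM. Upper-quartile scaling gave 0.0023 for H2ac18 and 0.0103 for H2bc21 in EtOH against Ctrl, and a pseudocount of 1 gave -0.069 for H4c8 in EtOH-UA against EtOH. With each mouse left out the log2 fold change ranged, in EtOH against Ctrl, from -0.061 to 0.078 (H2ac18), -0.033 to 0.014 (H2bc21), -0.0128 to 0.29 (H4c9) and -0.28 to 0.022 (H1f5). In EtOH-UA against EtOH it ranged from -0.48 to 0.64 (H3c14), -0.34 to 0.35 (H4c8) and -0.23 to 0.0118 (H1f2), and in EtOH-UA against Ctrl from -0.0244 to 0.058 (H1f0), -0.0232 to 0.0685 (H1f10), -0.24 to 0.74 (H2ac19) and -0.23 to 0.64 (H4c12). The cause was not tested. The summed pairs and the values without the EtOH-UA library of the highest summed FPKM were added after the data had been seen. No paired analysis was possible because the columns of the table carry animal numbers and none of the replicate numbers of the sample annotations.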
